A study of Rattus norvegicus with 12 samples.

Results

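The genes described here encode the enzymes of drug metabolism in 4 families: the cytochromes P450 of families CYP1 to CYP3, the UDP-glucuronosyltransferases (UGT), the glutathione S-transferases (GST) and the sulfotransferases (SULT). They were chosen by their symbols on the array, which begin with Cyp1, Cyp2 or Cyp3 followed by a letter, or with Ugt1, Ugt2, Gst or Sult. This rule found 74 of the 13337 genes with a symbol, namely 34 CYP, 11 UGT, 21 GST and 8 SULT genes, which were measured by 80 of the 22523 probes. The brightest probe stood for a gene. Gstcd was taken in by its letters alone and is not an enzyme of the GST family.

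Their mRNA was compared between rats that swam and rats that did not, to see how the duodenal lining responds to endurance exercise. The swimming group held 6 female Sprague Dawley rats aged 9 weeks, which were first trained over 1 week and swam for 1 hour on 5 days of each week. The control group held 6 rats of the same sex, strain and age, which stayed sedentary in a pool for the same 2 weeks, with water at 30 to 32 °C for both groups. The labels name no genetic change and no drug for either group. The mucosa was scraped from 10 cm of duodenum, so each sample is a mixture of cell types, in which fewer cells of a type and less RNA per cell cannot be told apart. Each rat gave 1 single-colour bead array, and beyond the random assignment of rats nothing in the labels describes the replicates, so p-values measure the spread between these samples.

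Drug-metabolizing enzymes act in 2 phases. In phase I, mainly the CYP enzymes oxidise a compound with electrons passed on by the reductase Por. In phase II, UGT enzymes add glucuronic acid, SULT enzymes a sulfate group and GST enzymes glutathione, and efflux pumps then export the conjugates. Absorptive cells of the small intestine carry these enzymes and meet swallowed drugs and plant compounds before the liver does, and nuclear receptors such as PXR and CAR and the aryl hydrocarbon receptor induce many of the genes.

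Values below are normalized log2 intensities, and a difference is the swimming mean minus the control mean on that scale. A gene is called bright where its mean over the 12 arrays exceeds that of the median probe, 6.36. Raw median intensities of the arrays lay between 62.7 and 88.8. The array titled swimming 5 stands apart. Proximal small intestine markers were low in it, 11 of the 14 measured by over 1 log2 below every other array, and the mean of the list was 7.43 in swimming 5, against 11.29 to 11.87 in the other 11 arrays. The mean of 7 markers of the large intestine was 9.69 in swimming 5, against 7.29 to 7.65 elsewhere. Of these 7 only 2, Car1 at 14.94 and Hoxa7 at 10.76, lay above every other array by over 1 log2, while Aqp8 and Hoxb13 lay within the values of the other arrays. With its low proximal markers this array goes against its duodenal label. Alpi, the alkaline phosphatase of the brush border, read 5.998 in swimming 5 and 14.69 to 15.04 in the other swimming arrays, against 14.75 to 15.01 in control arrays. Hepatocyte markers averaged 6.38 to 6.74 on every array. No marker of another cell type passed the test, although all 6 red blood cell markers read lower in swimming rats (list means of 7.32 to 8.48 in swimming arrays, against 8.30 to 8.93 in control arrays) and all 7 stromal markers higher (7.12 to 7.78, against 6.51 to 7.70), and their part in the differences below was not tested. Further, 3 pairs of arrays were nearly identical. The spread of log2 differences within a pair was taken over the 4933 probes with a mean above 8. It was 0.078 for swimming 3 with control 3, 0.16 for swimming 4 with swimming 6 and 0.12 for control 4 with control 6. In the 52 other pairs without swimming 5 it was 0.22 to 0.65. The 2 pairs of 1 group each differed by less than other replicates did and were counted as 1 sample in each mean ± SD, whereas medians, ranges and the fit count every array. A restricted comparison averages these pairs and leaves out control 3, swimming 3 and swimming 5, which leaves 3 swimming samples against 4 control samples.

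The sequences printed below lie just upstream of the 5 bright UGT2B genes. All 5 read low together in swimming 5, and the printed stretches are the 150 bases before each start site from RefSeq, build GRCr8, on the plus strand of chromosome 14. Capitals mark the run of 25 bases that all 5 promoters share, the longest such run on the gene's strand. The genes were chosen, and the run was found, after their values had been seen.
Ugt2b35, chr14:21208291-21208440: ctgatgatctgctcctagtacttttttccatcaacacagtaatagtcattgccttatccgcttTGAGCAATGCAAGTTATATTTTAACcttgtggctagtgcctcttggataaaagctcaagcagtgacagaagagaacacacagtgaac
Ugt2b7, chr14:21251385-21251534: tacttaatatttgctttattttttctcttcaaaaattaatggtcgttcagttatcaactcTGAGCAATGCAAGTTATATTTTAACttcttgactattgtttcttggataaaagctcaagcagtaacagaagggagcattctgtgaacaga
Ugt2b15, chr14:21122716-21122865: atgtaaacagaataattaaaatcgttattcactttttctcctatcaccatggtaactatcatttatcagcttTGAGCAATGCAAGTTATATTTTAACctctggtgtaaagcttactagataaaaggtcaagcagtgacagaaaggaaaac
Ugt2b37, chr14:21171986-21172135: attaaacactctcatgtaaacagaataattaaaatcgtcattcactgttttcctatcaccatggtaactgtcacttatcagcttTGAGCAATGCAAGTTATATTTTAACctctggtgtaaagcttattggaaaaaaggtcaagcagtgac
Ugt2b, chr14:20985299-20985448: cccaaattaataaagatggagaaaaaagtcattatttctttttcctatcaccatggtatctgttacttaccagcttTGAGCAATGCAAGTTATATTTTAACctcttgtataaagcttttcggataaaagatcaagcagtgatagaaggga

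RefSeq promoters of 300 bases (250 before the start and 50 after it) were found for 68 of the 74 genes. The run of 25 bases occurs, on either strand, in 7 of all 33469 promoters (0.021%), and among the 68 in these 5 alone. It ends between 42 and 66 bases before the start. Over the whole windows the 5 promoters are 60.1 to 85.3% identical in pairs, so a long shared run is part of a wider likeness between these copies. Within the run lie GTTA and TAAC with 5 bases between them, as in the palindromic consensus of HNF1, a transcription factor of liver and gut. This motif reads the same on both strands and occurs in 83 of the 33469 promoters (0.248%) and again in only these 5 of the 68. It was searched after the run had been seen. The match is of letters and does not show a binding site. Ugt2b1, whose promoter holds neither, was a dim probe with 6.05 to 6.71 in swimming arrays, against 6.10 to 6.29 in control arrays. The promoters of Cyp3a18, Cyp2b15, Gsta2 and Gsta5 also hold neither. In swimming 5 these 4 genes lay 4.19, 3.05, 6.43 and 6.58 log2 below the lowest other array. The 5 UGT2B genes lay 3.18 to 4.88 below it. Genes low in swimming 5 were thus found both with and without the run and motif, whose part in the values was not tested.

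Between swimming and control rats, no gene of the 4 families passed the test. With limma and Benjamini-Hochberg adjustment over all probes, 0 of 22523 probes (0%) passed an adjusted p of 0.05, and 0 of 22523 (0%) without swimming 5. The smallest adjusted p among the 74 genes was 0.911 with all arrays, 0.891 without swimming 5 and 0.993 in the restricted comparison. An unadjusted p under 0.05 was reached by 6 of the 74 genes (8.11%), against 4.78% of all probes, and without swimming 5 by 8 of 74 (10.8%), against 5.05% of all probes. Of these 8 genes, 7 read higher in swimming rats. Only Gstm6, a GST of the mu class, had groups that did not overlap. Its dim probe read 6.19 to 6.49 in swimming arrays, against 5.97 to 6.18 in control arrays, a difference of 0.22. This gene lies outside the rule for named genes and was chosen after its values were seen. All 6 swimming arrays lay above all control arrays in 0.0577% of probes and below them in 0.124%.

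By family, the counts of genes higher and lower in swimming rats depended on the arrays kept, above all for the UGT genes. Of 11 UGT genes, 2 read higher and 9 lower, with a median difference of -0.21, and without swimming 5 the counts were 5 higher and 6 lower with a median of -0.019. In the restricted comparison 9 UGT genes read higher and 2 lower, with a median of 0.098. Of 34 CYP genes, 21 read higher and 13 lower, with a median difference of 0.027, and 21 and 13 without swimming 5, with a median of 0.037. GST genes split into 10 higher and 11 lower with all arrays and 13 higher and 8 lower without swimming 5, at medians of -0.0001 and 0.026. SULT genes split into 4 higher and 4 lower, and into 6 higher and 2 lower without it, at medians of -0.0089 and 0.036. In the restricted comparison the splits were 21 higher and 13 lower for CYP, 13 and 8 for GST and 6 and 2 for SULT genes. Over all probes the median difference was -0.0015 with all arrays and -0.0033 without swimming 5.

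Of the 74 genes, 46 were bright, among them 14 CYP, 9 UGT, 18 GST and 5 SULT genes. The 28 dim genes had values between 5.66 and 6.75 and differences between -0.15 and 0.22. They include forms known best from rat liver, such as Cyp2c11, Cyp2c12, Cyp2e1, Cyp1a2, Cyp3a2 and Cyp3a23-3a1. For dim probes a difference understates a change in RNA, and a dim signal does not show that a gene is silent.

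**Figure D1:**
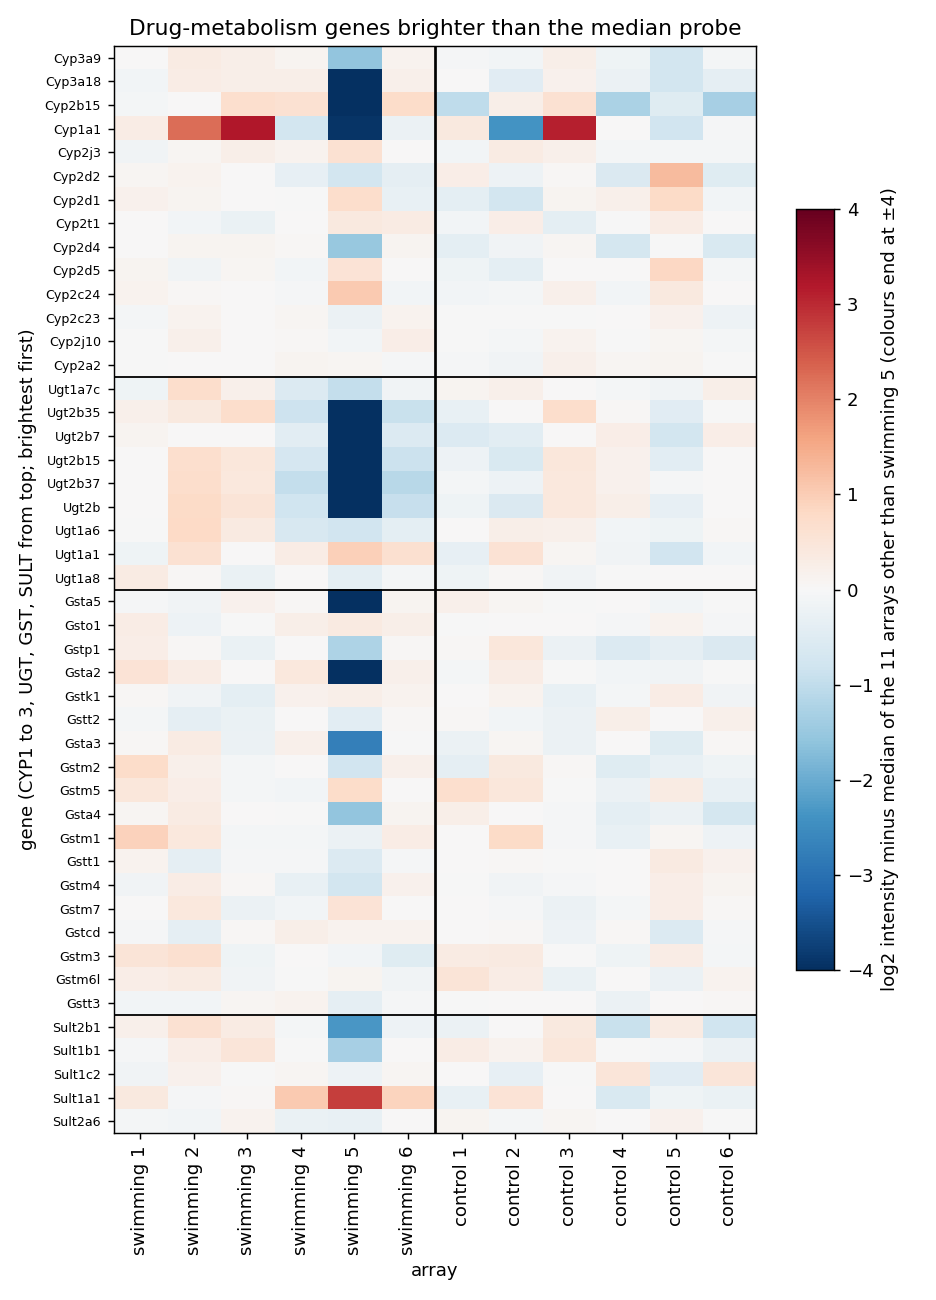
Log2 intensity of each of the 46 bright genes (rows, by family from top to bottom, brightest first within a family) in each array (columns, 6 swimming arrays left of 6 control arrays), as the log2 intensity minus the gene's median over the 11 arrays other than swimming 5, with colours ending at 4 log2 either way. The column of swimming 5 holds the deep blue cells of Cyp3a18, Cyp2b15, Cyp1a1, 5 UGT2B genes, Gsta5 and Gsta2. The Cyp1a1 row varies most among the other arrays.

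Among the phase I genes, Cyp3a9 gave the brightest signal. CYP3A9 and CYP3A18 are forms found in rat small intestine, where the CYP3A subfamily oxidises a wide range of drugs and steroids. Cyp3a9 read 13.06 at its lowest, 14.77 at the median and 14.96 at its highest in swimming arrays, against 13.91, 14.55 and 14.89 in control arrays. The lowest value was swimming 5, the next lowest was control 5, and the groups overlapped. The difference was 0.016 (SE 0.29, limma adjusted p = 0.994), and without swimming 5 it was 0.31 (SE 0.14, limma adjusted p = 0.891).

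Cyp3a18 read 11.26, 11.65, 11.59, 11.60 and 11.54 in swimming 1, 2, 3, 4 and 6 and 6.44 in swimming 5, against 11.35, 10.92, 11.54, 11.11, 10.62 and 10.98 in control arrays 1 to 6. Apart from swimming 5, the swimming arrays lay at the upper end of the control values, with an overlap through swimming 1, control 1 and control 3. The difference was -0.41 (SE 0.77, limma adjusted p = 0.946) with all arrays. It was 0.44 (SE 0.14, limma adjusted p = 0.891) without swimming 5 and 0.51 in the restricted comparison (limma adjusted p = 0.993), so its direction turned on that array and it passed in no fit. Mean values were 11.52 ± 0.18 in swimming samples other than swimming 5 (SD, n = 4) and 11.10 ± 0.36 in control samples (SD, n = 5).

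Cyp2b15, of the CYP2B subfamily, read 10.94, 11.02, 11.69, 11.64 and 11.76 in swimming 1, 2, 3, 4 and 6 and 6.63 in swimming 5, against 10.00, 11.26, 11.62, 9.74, 10.53 and 9.68 in control arrays 1 to 6. Control 2 and control 3 reached the swimming values, and the other 4 control arrays lay below every swimming array but swimming 5. The difference was 0.14 (SE 0.79, limma adjusted p = 0.985), and without swimming 5 it was 0.95 (SE 0.35, limma adjusted p = 0.891). The near-identical arrays weigh on this gene, since swimming 4 and 6 were both high and control 4 and 6 both low. With each such pair averaged the difference was -0.23 with swimming 5 kept, and it was 0.86 in the restricted comparison (limma adjusted p = 0.993).

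Cyp1a1, which oxidises polycyclic aromatic hydrocarbons and is the classical target of the aryl hydrocarbon receptor, varied most between rats. It read 10.37, 12.32, 13.30, 9.35, 6.16 and 9.86 in swimming arrays 1 to 6, against 10.47, 7.69, 13.18, 10.08, 9.31 and 10.03 in control arrays 1 to 6. Its highest arrays were swimming 3, control 3 and swimming 2, its lowest were swimming 5 and control 2, and the groups overlapped over nearly their whole range. The SD over the 11 arrays other than swimming 5 was 1.73, larger than that of 99.8% of bright probes. The difference was 0.099 (SE 1.13, limma adjusted p = 0.993), and without swimming 5 it was 0.92 (SE 0.92, limma adjusted p = 0.914). Swimming 3 and control 3 are a near-identical pair, so their agreement at 13.30 and 13.18 is not a repeat in separate profiles.

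The arrays with the highest Cyp1a1 were also those with the highest pancreatic markers. The mean of 13 measured markers of the exocrine pancreas was 10.46 in swimming 2, 9.38 in swimming 3 and 7.57 in swimming 1, against 9.40 in control 3, and it was 6.43 to 6.70 in the other 8 arrays. All 13 of these markers read higher in swimming rats by the mean, with 0 past the test. Ahrr, a repressor that the aryl hydrocarbon receptor itself induces, read 7.36 in swimming 3 and 6.59 in swimming 2, against 7.37 in control 3, and 6.25 to 6.67 in the remaining arrays. The part of the pancreatic signal in the Cyp1a1 values was not tested. The other CYP1 genes were dim, with Cyp1b1 at 5.96 to 6.44 in swimming arrays, against 6.01 to 6.51 in control arrays, and Cyp1a2 at 5.77 to 6.17 against 5.66 to 6.34.

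**Figure D2:**
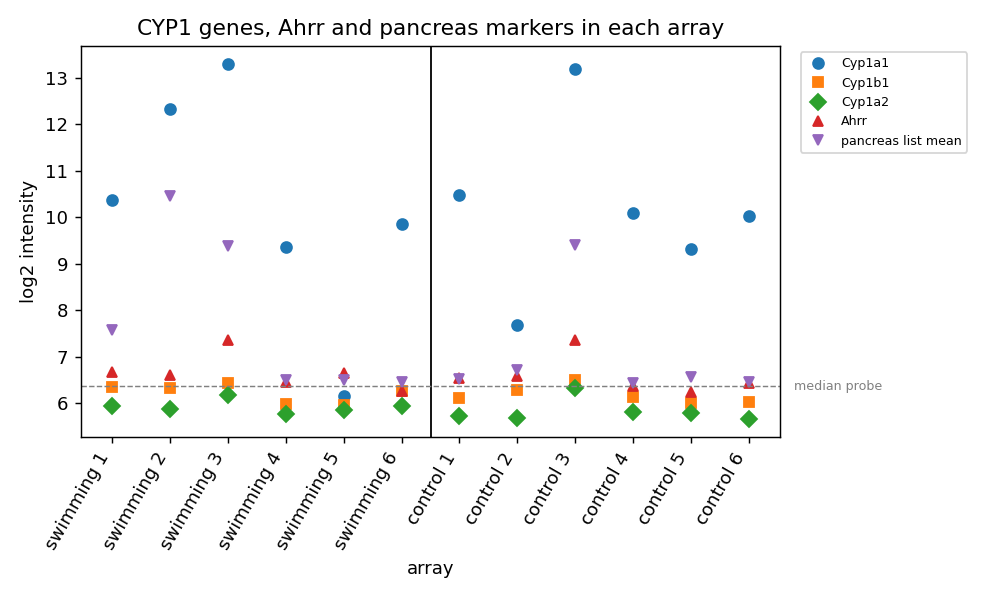
Log2 intensity (vertical axis) of Cyp1a1, Cyp1b1, Cyp1a2, Ahrr and the mean of the exocrine pancreas markers in each of the 6 swimming arrays (left) and 6 control arrays (right), with the median probe as a dashed line. Cyp1a1 was above 12 in swimming 2, swimming 3 and control 3, the 3 arrays with the highest pancreas mean, while Cyp1b1 and Cyp1a2 stayed near the median probe.

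The remaining named CYP genes had small differences. Cyp2j3, an epoxygenase of arachidonic acid in the rat, read 9.94 at its lowest, 10.19 at the median and 10.69 at its highest in swimming arrays, against 9.98, 10.00 and 10.41 in control arrays, with a difference of 0.12 (SE 0.12). Its highest value was swimming 5, and without that array the difference was 0.036 (SE 0.098). Cyp2d2, a CYP2D form of the rat, read 9.00, 9.58 and 9.88 in swimming arrays, against 9.17, 9.67 and 11.004 in control arrays, and its difference was -0.25 (SE 0.28), or -0.14 (SE 0.28) without swimming 5. Control 5 held the highest Cyp2d2 value, and without control 5 the difference was -0.0062. Cyp2j10 differed by 0.065 (SE 0.072), and by 0.099 (SE 0.069) without swimming 5, between overlapping groups. The probes of Cyp2d1, Cyp2d2, Cyp2d4 and Cyp2d5, and likewise of the Cyp2c genes, belong to related gene copies, whose likeness in sequence was not measured here. Probe sequences were not used here, so cross-hybridisation between copies was not tested, and single-gene values in these groups are uncertain.

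In phase II, the 5 bright UGT2B genes were all lowest in swimming 5. UGT2B enzymes glucuronidate steroids, bile acids and many drugs. Their mean was 11.09, 11.52, 11.44, 10.28, 6.16 and 10.14 in swimming arrays 1 to 6, against 10.76, 10.66, 11.42, 11.20, 10.62 and 11.07 in control arrays 1 to 6. Swimming 5 was by far the lowest, and swimming 4 and 6, a near-identical pair, came next below every control array, though for Ugt2b7 alone they lay inside the control range. Swimming 1 lay within the control range, swimming 2 above it and swimming 3 beside control 3, its near-identical array. All 5 genes read lower in swimming rats, with a median difference of -0.80, but without swimming 5 the split was 2 higher and 3 lower with a median of -0.022.

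Ugt2b35 read 5.90 at its lowest, 11.37 at the median and 12.39 at its highest in swimming arrays, against 11.23, 11.68 and 12.38 in control arrays. Its difference was -1.04 (SE 0.90, limma adjusted p = 0.912) with all arrays, -0.091 (SE 0.30, limma adjusted p = 0.975) without swimming 5 and 0.086 in the restricted comparison. The second bright probe of this gene gave differences of -0.73 with all arrays and 0.037 without swimming 5. Ugt2b37 read 6.33, 10.15 and 11.33 in swimming arrays, against 10.41, 10.60 and 11.05 in control arrays, with a difference of -0.92 (SE 0.67) that was -0.24 (SE 0.30) without swimming 5. Here swimming 4 and 6, at 9.67 and 9.52, also lay below every control array. The differences of Ugt2b7 and Ugt2b were -0.80 (SE 0.76) and -0.75 (SE 0.71) with all arrays, and 0.022 (SE 0.20) and -0.022 (SE 0.31) without swimming 5. Ugt2b15, which falls outside the rule for named genes and is given with its 4 neighbours, differed by -0.75 (SE 0.74) and by 0.025 (SE 0.28) without swimming 5. The promoters of these genes are alike, but their transcripts and the probe sequences were not compared. How far each probe reads its own gene is therefore uncertain.

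**Figure D3:**
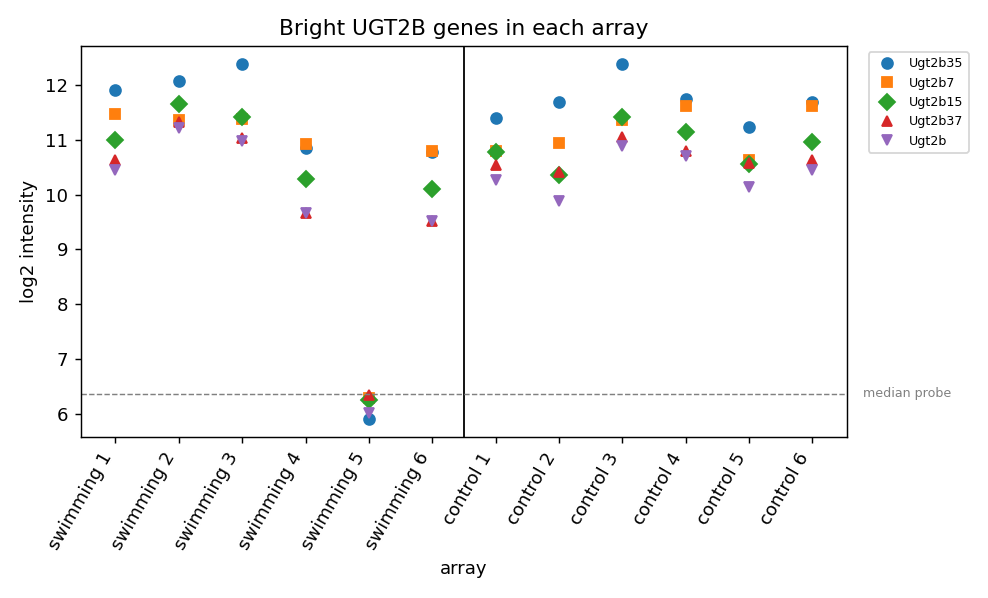
Log2 intensity (vertical axis) of the 5 bright UGT2B genes in each of the 6 swimming arrays (left) and 6 control arrays (right), with the median probe as a dashed line. All 5 lay at 5.90 to 6.33 in swimming 5, below the median probe, and swimming 4 and 6 were the next lowest for every gene but Ugt2b7.

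No UGT1A gene lay beyond all other arrays by over 1 log2 in swimming 5. UGT1A enzymes share their later exons, so a probe there reads several of them. Ugt1a7c, whose enzyme glucuronidates phenols of benzo[a]pyrene in the rat, read 10.69, 11.49 and 12.34 as lowest, median and highest in swimming arrays, against 11.52, 11.69 and 11.87 in control arrays. The control arrays lay inside the swimming range, and the difference was -0.21 (SE 0.22), or -0.045 (SE 0.18) without swimming 5. Ugt1a1, the enzyme that conjugates bilirubin, read 7.09, 7.85, 7.26, 7.55, 8.20 and 7.90 in swimming arrays 1 to 6, against 6.94, 7.83, 7.33, 7.12, 6.48 and 7.15 in control arrays 1 to 6. Its highest array was swimming 5 and its lowest control 5, and the groups overlapped. The difference was 0.50 (SE 0.23, limma adjusted p = 0.911), and 0.38 (SE 0.21, limma adjusted p = 0.891) without swimming 5.

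Among the glutathione S-transferases, the alpha class was low in swimming 5. Alpha-class enzymes conjugate electrophiles and reduce lipid hydroperoxides, and they are abundant in liver and small intestine. Gsta5 read 14.92, 14.84, 15.14, 15.04, 8.26 and 15.09 in swimming arrays 1 to 6, against 15.19, 15.05, 14.96, 14.98, 14.88 and 14.97 in control arrays 1 to 6. Outside swimming 5 its normalized values were steady, with an SD of 0.11 over 11 arrays, smaller than that of most bright probes. Gsta5 was brighter than 99.75% of probes, and how far quantile normalization narrows the spread at that level was not tested. Its difference was -1.12 (SE 1.01, limma adjusted p = 0.915) with all arrays and 0.0026 (SE 0.072, limma adjusted p = 0.996) without swimming 5. Its raw intensity was 381 in swimming 5 and 30355 to 37418 in the other swimming arrays, against 26584 to 46518 in control arrays.

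Gsta2 read 13.43, 13.17, 12.87, 13.29, 6.30 and 13.08 in swimming arrays 1 to 6, against 12.80, 13.18, 12.87, 12.77, 12.73 and 12.86 in control arrays 1 to 6. Apart from swimming 5, all swimming arrays were at or above 12.87, a level that control 2 passed and control 3 all but reached. The difference was -0.84 (SE 1.03, limma adjusted p = 0.922) with all arrays, 0.30 (SE 0.10, limma adjusted p = 0.891) without swimming 5 and 0.38 in the restricted comparison (limma adjusted p = 0.993). Over the 4 bright alpha-class genes, 0 read higher and 4 lower with all arrays, at a median difference of -0.55, and 4 read higher and 0 lower without swimming 5, at a median of 0.25. None of these differences passed the test. Alpha and mu class probes belong to gene copies of like sequence and share the uncertainty named above.

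**Figure D4:**
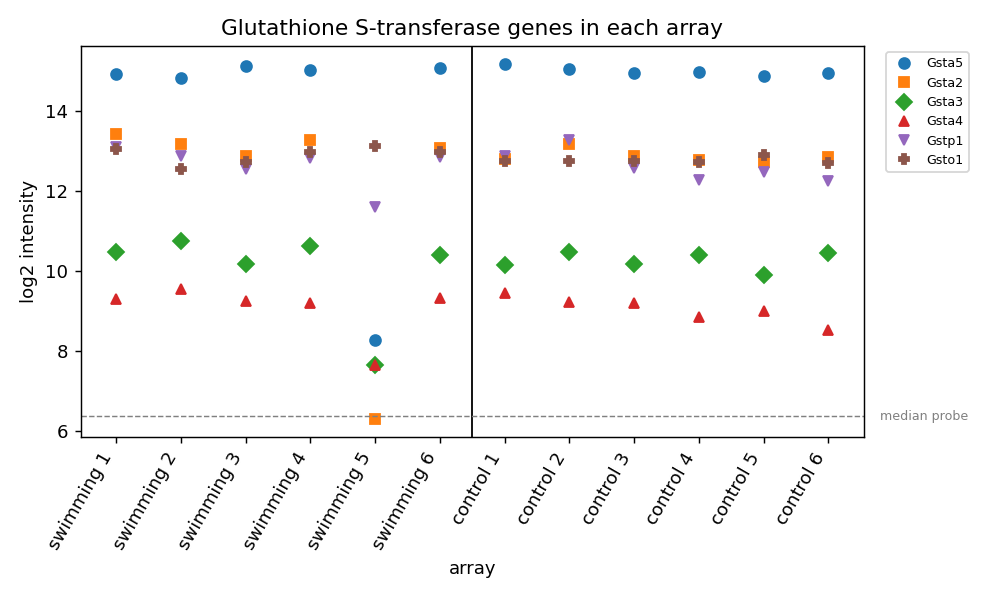
Log2 intensity (vertical axis) of 6 bright GST genes in each of the 6 swimming arrays (left) and 6 control arrays (right), with the median probe as a dashed line. The alpha-class genes Gsta5, Gsta2, Gsta3 and Gsta4 were all lowest in swimming 5, where Gsto1 read 13.12, its highest value.

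In the other classes, no bright gene read below all other arrays by over 1 log2 in swimming 5. Gsto1, of the omega class, which reduces dehydroascorbate and mixed disulfides, read 12.56 at its lowest, 12.97 at the median and 13.12 at its highest in swimming arrays, against 12.69, 12.75 and 12.90 in control arrays. The difference was 0.14 (SE 0.090, limma adjusted p = 0.911), and it was 0.099 (SE 0.088) without swimming 5 and 0.084 in the restricted comparison. Swimming 1, 4, 5 and 6 read above every control array, but swimming 4 and 6 are a near-identical pair. Gstp1, of the pi class, read 11.60, 12.84 and 13.09 in swimming arrays, against 12.26, 12.53 and 13.28 in control arrays, with a difference of 0.0072 (SE 0.24) that was 0.22 (SE 0.17) without swimming 5, its lowest array. Both named genes of the theta class, which also conjugates small halogenated compounds, read lower in swimming rats. Gstt1 read 7.33, 7.82 and 8.001 in swimming arrays, against 7.86, 7.90 and 8.24 in control arrays, a difference of -0.25 (SE 0.11, limma adjusted p = 0.911) that was -0.17 (SE 0.093) without swimming 5. Gstt2 differed by -0.20 (SE 0.10), and by -0.16 (SE 0.10) without swimming 5, between overlapping groups.

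The sulfotransferases split in swimming 5. Sult2b1, which sulfates cholesterol and other hydroxysteroids, read 8.98, 11.36 and 11.91 as lowest, median and highest in swimming arrays, against 10.41, 11.18 and 11.68 in control arrays. The difference was -0.040 (SE 0.44), and 0.38 (SE 0.25, limma adjusted p = 0.891) without swimming 5. The second bright probe of Sult2b1 gave differences of 0.17 with all arrays and 0.50 without swimming 5. That probe read 6.53 in swimming 5, against 7.12 to 9.51 in the other arrays, so its gap was under 1 log2. Sult1b1, a phenol and thyroid hormone sulfotransferase, read 9.53, 10.85 and 11.33 in swimming arrays, against 10.62, 10.93 and 11.31 in control arrays, with a difference of -0.22 (SE 0.25), or 0.028 (SE 0.13) without swimming 5.

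Sult1a1, which sulfates simple phenols, was the only bright gene of the 46 that read higher in swimming 5 than in all other arrays by over 1 log2. It read 7.52, 7.08, 7.16, 8.17, 9.89 and 8.01 in swimming arrays 1 to 6, against 6.82, 7.65, 7.11, 6.50, 6.95 and 6.86 in control arrays 1 to 6. Swimming 4, 5 and 6 read above every control array, and the other swimming arrays lay among the control values. The difference was 0.99 (SE 0.41, limma adjusted p = 0.911), 0.59 (SE 0.23, limma adjusted p = 0.891) without swimming 5 and 0.53 in the restricted comparison (limma adjusted p = 0.993). Sult1c2 differed by -0.042 (SE 0.16) and Sult2a6 by -0.14 (SE 0.079), both between overlapping groups, and without swimming 5 by -0.0044 (SE 0.16) and -0.099 (SE 0.075).

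**Figure D5:**
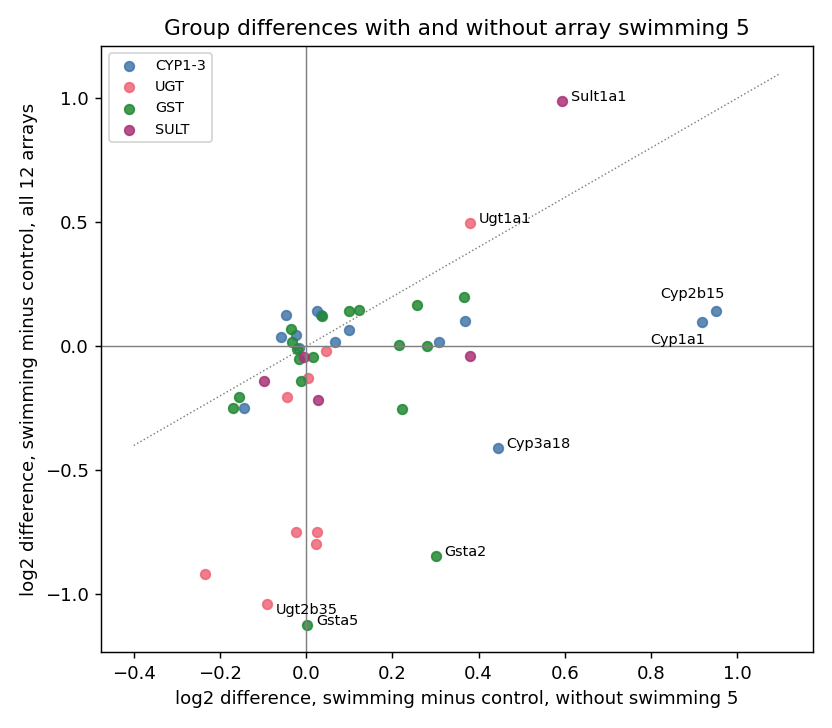
Each point is 1 of the 46 bright genes, coloured by family, with the log2 difference, swimming minus control, without swimming 5 on the horizontal axis and with all 12 arrays on the vertical axis, and the dotted line marks equal values. Gsta5, Gsta2 and the UGT2B genes lay far below the line, while Sult1a1 and Ugt1a1 were above 0 on both axes.

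Counted over the families, 13 of the 46 bright genes (28.3%) read lower in swimming 5 than in every other array by over 1 log2, against 3.83% of the 11261 bright probes. These were 3 of 14 CYP, 5 of 9 UGT, 3 of 18 GST and 2 of 5 SULT genes. In the other direction stood 1 of 46 (2.17%), against 3.04% of bright probes. The bright probes were not matched to the 46 genes for brightness, and a probe just above the median probe has little room to fall. Of the 13 low genes the dimmest was Ugt2b, whose mean of 10.01 over the 12 arrays was brighter than 90.14% of all probes. How far brightness accounts for the gap between 28.3% and 3.83% was not tested. In 7 genes, namely the 5 UGT2B genes, Gsta2 and Cyp1a1, swimming 5 was dimmer than the median probe while all 11 other arrays were brighter. The UGT family mean was 6.93 in swimming 5, against 8.77 to 9.63 in the other arrays, and the GST mean was 8.06, against 8.87 to 9.19. These counts describe 1 array, and the low markers of the proximal small intestine given above move with them.

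The variation between the other 11 arrays was also wide. Of the 46 bright genes, 32 had an SD over these arrays above that of the median bright probe, 0.21. After Cyp1a1 the widest were Cyp2b15 at 0.80, Ugt2b37 at 0.55, Ugt2b at 0.55 and Ugt2b35 at 0.54. Swimming 2 held the highest value in 14 of the 46 genes, while control 5 was highest in 8 and lowest in 8. Control 4 and control 6, a near-identical pair, were lowest in 7 genes each. The same counts over all bright probes were not made. Within the near-identical pairs Cyp2b15 differed by at most 0.12. These pairs agree closely over probes in general, so this does not show where the spread of Cyp2b15 lay.

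The genes that supply or control these enzymes, in 4 lists, had no member past the test. Of 14 measured regulators, 5 read higher and 9 lower in swimming rats, with a median difference of -0.082, and 1 higher and 13 lower without swimming 5, with a median of -0.091. Nr1i2, which encodes PXR, differed by 0.014, or by -0.0076 without swimming 5, and Nr1i3, which encodes CAR, read 6.84 in swimming 5, against 7.98 to 9.20 in all other arrays. Gata4, a factor of the proximal small intestine, read 5.69 there and 10.16 to 10.77 elsewhere. In the other direction, Nr1h4 read 9.95 in swimming 5, against 7.96 to 8.83 in the other arrays, and Cdx2 read 10.83, against 9.20 to 9.76. By over 1 log2, 2 of the 14 regulators lay below every other array in swimming 5 and 2 above. Of 11 measured genes of cofactor supply, 4 read higher and 7 lower, both with and without swimming 5. Papss2, which makes the sulfate donor for SULT enzymes, read 7.65 in swimming 5, against 13.06 to 13.60 in the other arrays, with a difference of -1.12, or -0.19 without swimming 5. Papss1 and Ugdh of this list were highest in swimming 5, at 9.70, against 8.09 to 8.89 elsewhere, and at 13.61, against 12.38 to 13.41. By over 1 log2, 1 of the 11 lay below every other array in swimming 5 and 0 above. The difference of Por was -0.018, and 0.17 without swimming 5, in which it read 10.92, against 11.53 to 12.46 in the other arrays.

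Of 11 other drug-metabolizing enzymes measured, 5 read higher and 6 lower, and 7 higher and 4 lower without swimming 5. The microsomal glutathione transferase Mgst1 read 10.77 in swimming 5, against 13.44 to 14.26 elsewhere, and the flavin monooxygenase Fmo1 read 6.26, against 7.73 to 8.85. These were the 2 of the 11 that lay below every other array by over 1 log2, with 0 above. By smaller gaps, Nqo1, Nat1 and Nat2 were highest in swimming 5, with Nqo1 at 11.11, against 8.84 to 10.58 elsewhere. Among 4 measured efflux pumps, 2 read higher and 2 lower, and 3 higher and 1 lower without swimming 5. Abcc3, which exports glucuronides across the basolateral membrane, was highest in swimming 5, with 12.35, against 10.03 to 10.82 in the other arrays.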

How the data were processed

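The deposited raw table gives, per the file headers, an averaged signal for every probe. These are linear intensities with no value below 0. The authors also deposited intensities they had processed, with 26.2 to 26.3% of values below 0 and a median of 16.0 in every array. Its method and the reading software are not given in the sources used here. It served as an alternative.

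The raw values were corrected for background by normexp (offset 50), then quantile-normalized and log2-transformed, using limma 3.58.1 (R 4.3.3). All 22523 probes entered lmFit and eBayes (two-sided), with Benjamini-Hochberg adjustment over all probes and calls at adjusted p under 0.05. The fit was checked on simulated data. Groups came from the sample titles. Neither table gives detection p-values, and the number of arrays limits the precision.

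Symbols came from the platform annotation, and all 74 genes matched a current rat gene by Entrez identifier. The genes, marker lists and pathway lists were chosen with earlier results of these data known. Named genes are, per family and among bright genes, the 3 brightest, the 3 with the smallest p and up to 2 each way in which swimming 5 lay farthest beyond every other array. To these were added bright genes whose groups do not overlap, of which there were none, and the 5 genes with the largest SD over the other 11 arrays. A probe's brightness also depends on the probe, so it does not rank transcript levels between genes. Promoters were compared with Biopython 1.88.

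Equal numbers in the titles were not used to pair the arrays, since the labels do not say that they pair rats. The correlation of deviations ran from -0.025 to 0.73 over the 6 numbers. Its highest value came from swimming 3 and control 3, which are near-identical arrays, so these correlations do not settle whether rats were paired. Alternatives were other scalings, offsets, probe rules and arrays left out.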

Additional observations from a re-analysis of the deposited data

Results flagged for a closer look

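Values far from the rest of their own group of 6 arrays by Dixon's ratio were found in 18 cases among 56 groups examined, and 16 of the 18 were swimming 5. Chance flags about 5 percent of groups, but the named genes were chosen partly for their distance in swimming 5 or their spread, and the family means hold the same genes, so the number of cases is a description and cannot be set against that rate. The family means in swimming 5 were 6.86 for CYP1 to CYP3, 6.93 for UGT, 8.06 for GST and 7.78 for SULT, the lowest of their group each time.

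Single genes in swimming 5 were likewise the lowest of their group. Among CYP genes, Cyp3a9 read 13.06, Cyp3a18 6.44 and Cyp2b15 6.63. Among UGT genes, Ugt2b35 read 5.90, Ugt2b7 6.28, Ugt2b37 6.33 and Ugt2b 6.02. Among GST and SULT genes, Gsta5 read 8.26, Gstp1 11.60, Gsta2 6.30, Sult2b1 8.98 and Sult1b1 9.53.

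The other 2 cases were high control values, with Gsto1 at 12.90 in control 5, against 12.69 to 12.75 in the other control arrays, and Gsta2 at 13.18 in control 2, against 12.73 to 12.87.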

How the results depend on the processing

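No probe passed the test under any of 21 alternatives, where the smallest adjusted p from limma was 0.113 without control 3, 0.123 with the authors' table and 0.212 without swimming 3, and above these values elsewhere, and the number of probes with an unadjusted p under 0.05 was 630 to 1660. Of 459 pairs of a named gene and an alternative, 404 kept their direction and 55, in 15 genes, reversed, none past the threshold. Median scaling moved the median of all probes by 0.013. The UGT mean difference was -0.37, and was -0.574 with the authors' table, 0.126 in the restricted comparison and -0.535 to 0.0001 with single arrays left out. The GST mean difference was -0.085, and was 0.091 in the restricted comparison and -0.144 to 0.081 with single arrays left out. In both, the upper end is the fit without swimming 5. The SULT mean difference of 0.091 was 0.159 with median scaling and 0.156 with the authors' table. Treating equal numbers as a replicate block left the UGT value at -0.371 and called 0 probes (1052 with an unadjusted p under 0.05), and the correlations for numbers 1 to 6 were 0.0009, -0.019, 0.73, 0.15, -0.025 and 0.25. Reversals in the restricted comparison were Cyp2j3 at -0.015, Cyp3a18 at 0.512, Gsta2 at 0.380, Sult1c2 at 0.101, Sult2b1 at 0.420, Ugt1a7c at 0.0070, Ugt2b at 0.204, Ugt2b35 at 0.086 and Ugt2b7 at 0.232. With near-identical pairs averaged they were Cyp2b15 at -0.226, Cyp3a9 at -0.030, Gstp1 at -0.105 and Sult1c2 at 0.033. With the authors' table they were Cyp1a1 at -0.308, Cyp2b15 at -0.091 and Cyp3a9 at -0.036, with median scaling Sult1c2 at 0.116 and Sult2b1 at 0.107, with offset 16 Cyp1a1 at -0.0076, and with the mean of all probes of a gene Gstp1 at -0.0013 and Sult2b1 at 0.063. With single arrays left out, differences ranged from -0.517 to 0.918 for Cyp1a1, -0.090 to 0.951 for Cyp2b15, -0.600 to 0.445 for Cyp3a18, -0.104 to 0.309 for Cyp3a9, -1.12 to 0.300 for Gsta2, -1.37 to 0.0026 for Gsta5, -0.082 to 0.216 for Gstp1, -0.330 to 0.028 for Sult1b1, -0.137 to 0.050 for Sult1c2, -0.210 to 0.379 for Sult2b1 and -1.01 to 0.022 for Ugt2b7. All of these upper ends but that of Sult1c2, which left out control 6, are fits without swimming 5. Beyond arrays left out or averaged, the cause of these changes was not tested. Signal near the median probe limits what can be read for the dim genes.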
